A study of Mus musculus with 7 samples.

Results

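Genes of neural immunoglobulin (Ig) cell adhesion molecules were followed by symbol: Chl1, L1cam, Nrcam, Nfasc, Ncam1, Ncam2, Cadm1, Alcam, Mcam and Cntn1. These 10, of 46603 genes counted, were selected on their measured levels with the fusion and with empty vector in these same libraries, and 8 of the 10 were among the 16731 genes with enough reads to be tested. The libraries came from TRAMP-C1, an epithelial line from a prostate tumour of the mouse strain C57BL/6-TgN(TRAMP)8247Ng, in which a probasin promoter drives viral T antigens in the prostate. All 7 libraries are of this line and so share its transgene. In 3 libraries the cells carried a lentivirus with a PAX8-NFE2L2 fusion gene, and in 3 the matching empty vector, each exposed to virus for 12 h and then kept in new medium for 24 h. A single further library was labelled WT, with no vector named. The design set fusion against empty vector; the WT library has no replicate. The sources used here do not say whether the transduced cultures were selected or what share of cells carried a virus.

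Ig cell adhesion molecules are surface proteins whose Ig domains bind like molecules or partner proteins on neighbouring cells. In the nervous system they guide axons, bundle nerve fibres and organise synapses and nodes of Ranvier, and many are also made by tumour cells and other tissues. Proteins of the L1 family bind ankyrins and ERM proteins inside the cell, those of the NCAM family can carry polysialic acid that weakens adhesion, and several are cut from the cell surface by proteases.

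In the cells with the fusion, Chl1 went from at most 3 reads a library to at least 2846 and became one of the most abundant of the 10 transcripts per length. Ncam2 fell from moderate levels with empty vector to a trace, but the WT library, at 1.62 CPM, was nearer to the fusion mean. L1cam rose over empty vector at a very low level, with the WT library between the groups. Ncam2 and L1cam passed the main test but dropped out in 3 and 5 of the 6 fits that left out 1 library. Alcam, the most abundant of the 10, lay higher in all fusion libraries than in all empty vector libraries, and Mcam lay lower; neither passed the main test, and both passed once the replicate numbers were taken as pairs. Ncam1, Nrcam and Cadm1 overlapped between the groups, and Nfasc and Cntn1 had 0 to 3 reads in every library. The genes were chosen by their values in fusion against empty vector, so these values are a description and no p is given for them.

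The construct and the libraries were checked first. Pax8 counts were 2 in the WT library, 2, 2 and 9 in empty vector replicates 1, 2 and 3, and 336, 466 and 149 in fusion replicates 1, 2 and 3, so the construct's gene stood high only in the libraries labelled fusion. Nfe2l2 lay at 111 to 125 CPM (counts per 1e+06 gene counts, with TMM factors) with empty vector and 123 to 145 CPM with the fusion. Reads of the construct and of the cells' own genes are counted together, and the species of the construct was not known here. Reads assigned to genes came to 26368182 to 59597170 per library, fewest in fusion replicate 3, and 0 counts in a library allow a level of up to 0.0501 to 0.112 CPM (the level of 3 counts, counting error only). Both libraries numbered 3 stood apart, with 44.78% and 45.32% of reads aligning to several places, against 36.1 to 38.89% in the others. Each of them came as 1 lane, and each of the others as 2 lanes. Whether this bears on their levels was not tested. The labelled prostate epithelial identity was only partly borne out by 12 markers: Trp63 lay at 6.13 to 27.2 CPM, but Epcam reached at most 0.529 CPM, Krt8 lay at 0.521 to 1.90 CPM, and Tmprss2 and Hoxb13 lay below 0.1 CPM in every library. Mesenchymal markers were abundant in every library, with all 8 expressed and a summed level of 11352 to 21369 CPM. Whether the replicates were separate cultures is not stated in the labels, so the p-values reflect only the spread among these libraries, which may be technical.

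Upstream sequences are shown, for the member that fell and for one that rose, so that the start regions of the genes can be compared. Each is the 250 bases before a RefSeq start site (GRCm38.p6), 5′ to 3′ on the gene's strand, with CpG dinucleotides in capitals. Ncam2 is at chr16:81200447-81200696, plus strand, and L1cam at chrX:73880835-73881084, minus strand. L1cam has a further RefSeq start whose window shares most of its bases with the one shown and overlaps annotated exons. Both L1cam windows lie inside the annotated span of the gene. All 250 bases of the Chl1 window lie in annotated exons. The further L1cam window and that of Chl1 are not shown.
Ncam2: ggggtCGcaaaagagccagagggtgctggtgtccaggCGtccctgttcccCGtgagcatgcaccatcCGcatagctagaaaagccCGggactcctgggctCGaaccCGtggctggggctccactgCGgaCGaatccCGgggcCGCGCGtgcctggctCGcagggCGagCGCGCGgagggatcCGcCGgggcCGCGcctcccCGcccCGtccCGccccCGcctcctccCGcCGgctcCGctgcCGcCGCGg
L1cam: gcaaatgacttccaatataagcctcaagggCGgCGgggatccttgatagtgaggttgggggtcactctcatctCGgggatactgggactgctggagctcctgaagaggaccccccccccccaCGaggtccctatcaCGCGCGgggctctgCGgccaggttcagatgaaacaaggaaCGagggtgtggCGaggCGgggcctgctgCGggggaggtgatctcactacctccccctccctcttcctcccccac
The Ncam2 window holds 32 CpG dinucleotides at 75.2% G and C, and the L1cam window 12 at 63.2%. Of the windows not shown, that of Chl1 holds 8 at 52.4% and that of the further L1cam start 20 at 69.6%. Over 32851 RefSeq windows of this length the median was 6 CpG dinucleotides, with quartiles of 2 and 16, so Ncam2 and the further L1cam window lie above the upper quartile, and Chl1 and the L1cam window shown lie between the quartiles.

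These windows were searched on both strands for the core of the antioxidant response element bound by NRF2, the protein of Nfe2l2 (TGACNNNGC), for the AP-1 site (TGACTCA) and for the cyclic AMP response element (TGACGTCA). Of all 32851 windows 10.16%, 4.46% and 1.55% held a match. A window was found for 8 of the 10 genes, 12 windows in all, and none for Ncam1 or Cadm1. None of the 12 held the first or the second motif. The only match was TGACGTCA in the window of Mcam, 29 bases before the RefSeq start site. Of that window 189 of 250 bases lie in annotated Mcam exons, and the match is among them. It thus lies inside the annotated gene. A motif match is a description of letters, and its absence in this window says nothing of other sites.

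In the L1 family Chl1 stood out, with the largest fitted change of the 8 tested members. Chl1, close homolog of L1, is a receptor of growing axons (chromosome 6:103510586-103750211, plus strand, GRCm38, 12293 bases of exon). It had 1 count in the WT library, 0, 0 and 3 counts in empty vector replicates 1, 2 and 3, and 10263, 13982 and 2846 counts in fusion replicates 1, 2 and 3. In CPM the fusion libraries lay at 196, 256 and 106, far above every other library, with the lowest value in replicate 3. The mean was 186 ± 75.2 CPM (SD, n = 3) with the fusion against 0.0241 ± 0.0417 with empty vector. Pooled over the libraries the fusion counts stood at 10610 times those with empty vector (95% counting interval 3630 to 51454). The fitted log2 fold change was 13.05 (SE 0.78), which depends on the small count added in the fit. In a bulk culture more cells with the transcript and more transcript per cell cannot be told apart, and this holds for every gene below.

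L1cam, the founding member of the family, which promotes neurite growth and cell migration (chromosome X:73853778-73896105, minus strand), was scarce throughout. Its counts were 21 in the WT library, 11, 10 and 5 in empty vector replicates 1, 2 and 3, and 34, 64 and 20 in fusion replicates 1, 2 and 3. The 3 fusion libraries (0.648, 1.17 and 0.748 CPM) lay above the 3 empty vector libraries (0.184, 0.179 and 0.12 CPM), and the WT library lay between them at 0.421 CPM. Its log2 fold change was 2.38 (SE 0.43). L1cam shares 100 bases of exon with Arhgap4, on the same strand, where reads may be left unassigned.

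Nrcam, a family member found at nodes of Ranvier and on axons (chromosome 12:44328885-44601964, plus strand), did not separate the groups. The WT library held 0.922 CPM, empty vector replicates 1, 2 and 3 held 1.09, 1.83 and 3.37 CPM, and fusion replicates 1, 2 and 3 held 2.29, 2.58 and 1.35 CPM. The group means of 2.09 ± 1.16 and 2.07 ± 0.645 CPM were nearly equal, and the interval (95%) of the log2 fold change ran from -1.008 to 1.009. Within replicate numbers the ratio pointed in different directions, at 0.81, 0.41 and -1.07 on the log2(CPM + 0.5) scale for numbers 1, 2 and 3. Nfasc, neurofascin, which anchors nodes and the axon initial segment (chromosome 1:132564690-132741797, minus strand), had 3 counts in the WT library, 2 in empty vector replicate 3, 1 in fusion replicate 1 and 0 elsewhere. It was too low to test.

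**Figure D1:**
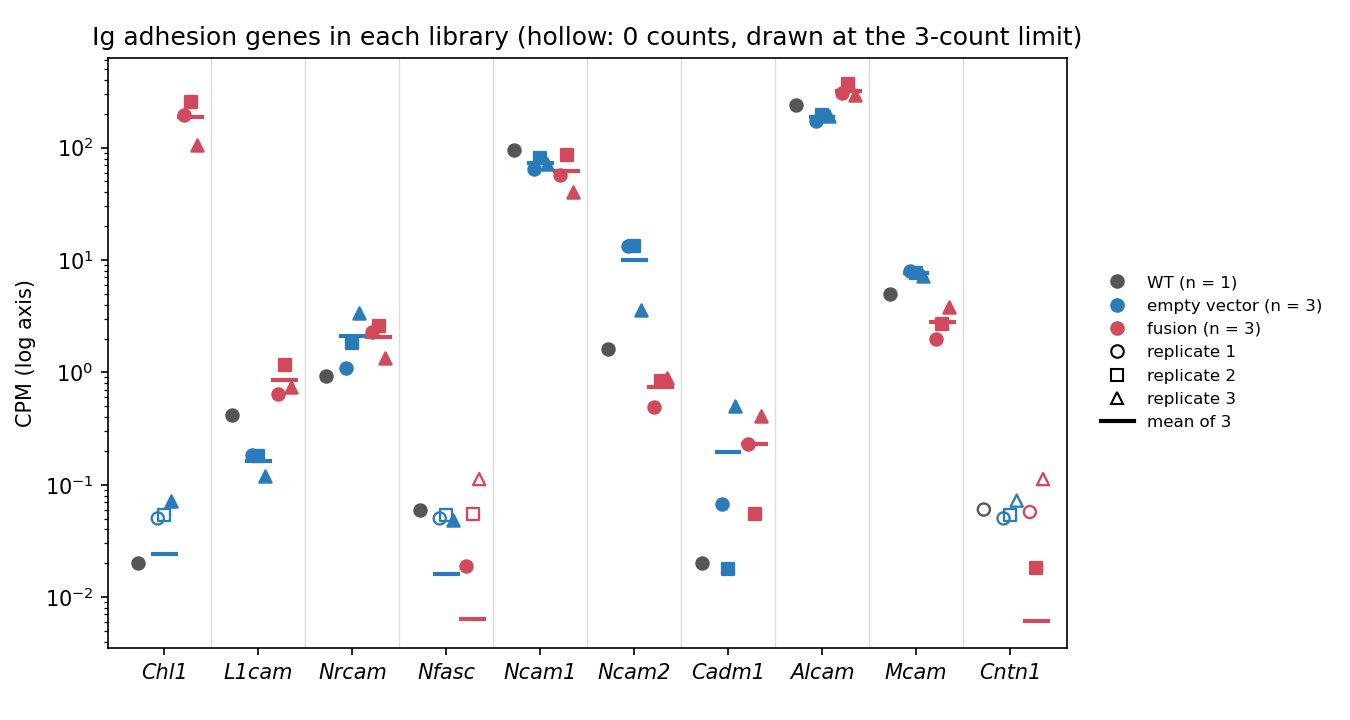
CPM of the 10 genes (log axis) in the WT library (grey), 3 empty vector libraries (blue) and 3 fusion libraries (red), with the replicate number as the symbol and the mean of 3 as a line. Hollow symbols mark 0 counts and stand at that library's 3-count limit, so they can lie above libraries with 1 or 2 counts. Chl1 lies at 106 to 256 CPM in the fusion libraries and at or below 0.0722 CPM elsewhere, and Ncam2 lies at 0.495 to 0.898 CPM with the fusion and 3.59 to 13.3 CPM with empty vector.

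In the NCAM family one gene fell and the other kept overlapping levels. Ncam2, an adhesion molecule best known from olfactory axons (chromosome 16:81200697-81626828, plus strand, 11330 bases of exon), had 81 counts in the WT library. Empty vector replicates 1, 2 and 3 held 795, 744 and 149 counts, and fusion replicates 1, 2 and 3 held 26, 46 and 24. As CPM these were 13.3, 13.3 and 3.59 with empty vector against 0.495, 0.842 and 0.898 with the fusion, and 1.62 in the WT library. The groups did not overlap, but empty vector replicate 3 lay well below the other two, and the WT library lay below every empty vector library and above every fusion library. The means were 10.1 ± 5.61 and 0.745 ± 0.218 CPM, and the log2 fold change was -3.77 (SE 0.56). The ratio within replicate numbers was -3.79, -3.36 and -1.55 on the log2(CPM + 0.5) scale for numbers 1, 2 and 3.

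Ncam1, the main carrier of polysialic acid (chromosome 9:49502136-49798925, minus strand), was abundant in every library. Its level was 94.5 CPM in the WT library, 64.9, 81.6 and 71.4 CPM in empty vector replicates 1, 2 and 3, and 57.5, 86.4 and 40.1 CPM in fusion replicates 1, 2 and 3. The groups overlapped, with fusion replicate 2 above every empty vector library and fusion replicates 1 and 3 below them all. The log2 fold change was -0.24, with an interval of -0.90 to 0.42. Of its exons 417 bases (4.813%) overlap Gm11149 on the other strand, and without a known strand setting reads there cannot be assigned with certainty.

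Alcam, an adhesion molecule of activated leukocytes and of sensory and motor axons (chromosome 16:52248996-52454074, minus strand), had the highest level per length of the 10 in all 7 libraries. Levels were 237 CPM in the WT library, 173, 195 and 193 CPM in empty vector replicates 1, 2 and 3, and 308, 365 and 293 CPM in fusion replicates 1, 2 and 3. The fusion libraries all lay above the empty vector and WT libraries. Its means were 187 ± 12.2 and 322 ± 38.2 CPM and its log2 fold change 0.79 (SE 0.19), short of the threshold in the main test and past it with the replicate block (0.78, SE 0.09). Mcam, known as CD146 and made by melanoma, vascular and smooth muscle cells (chromosome 9:44134469-44142727, plus strand), went the other way. The WT library held 5.03 CPM of it, empty vector replicates 1, 2 and 3 held 7.99, 7.65 and 7.15 CPM, and fusion replicates 1, 2 and 3 held 2.001, 2.69 and 3.78 CPM. All fusion libraries lay below all others, with means of 7.59 ± 0.423 and 2.82 ± 0.896 CPM and a log2 fold change of -1.44 (SE 0.30), also short of the threshold in the main test and past it with the block (-1.48, SE 0.24). Mcam shares 17 bases of exon with Gm10687 on the other strand.

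Cadm1, a synaptic and epithelial adhesion molecule (chromosome 9:47530173-47857637, plus strand), had 1 count in the WT library, 4, 1 and 21 in empty vector replicates 1, 2 and 3 and 12, 3 and 11 in fusion replicates 1, 2 and 3. Its highest level in each of the vector groups was in the library numbered 3, and the groups overlapped. Cntn1, a contactin that binds neurofascin at myelinated axons (chromosome 15:92051165-92341967, plus strand), had 1 count in fusion replicate 2 and 0 in the other 6 libraries.

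**Figure D2:**
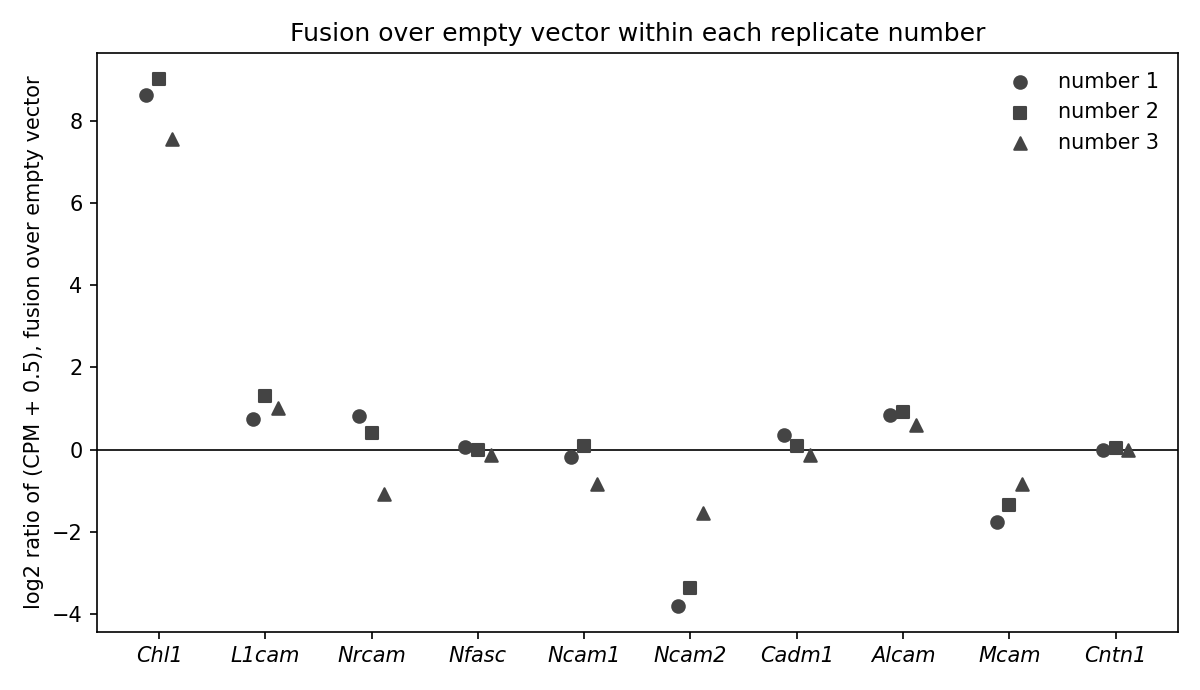
Log2 ratio of CPM + 0.5, fusion over empty vector, within each replicate number (symbols) for the 10 genes; the line marks no difference. Chl1, L1cam and Alcam lie above 0 and Ncam2 and Mcam below 0 in all 3 numbers, and Nrcam runs from -1.07 to 0.81.

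By edgeR's quasi-likelihood test with Benjamini-Hochberg adjustment at 0.05 over all tested genes, 3 of the 8 tested members passed, Chl1 and L1cam higher and Ncam2 lower, where 2.04% of all 16731 tested genes passed (1.69% higher and 0.353% lower). The rule used this contrast, so the share among the members is not read against the background. Chl1 and L1cam had enough reads to be tested only through the fusion libraries, so their calls are a description. The replicate numbers were taken to pair the libraries, and with the replicate number as a block 5 members passed, Alcam and Mcam being added, where 13.1% of all genes did. DESeq2 gave the same 5. In Chl1, L1cam and Alcam all fusion libraries lay above all empty vector libraries, as in 9.15% of all tested genes, and in Ncam2 and Mcam all lay below, as in 6.66%. Leaving out 1 library at a time kept Chl1 past the threshold in all 6 fits. These fits reuse the libraries on which the genes were chosen, so they are a description too. Ncam2 dropped out without empty vector replicate 2, fusion replicate 1 or fusion replicate 2, and L1cam in every such fit except the one without fusion replicate 3. From numbers 1 and 2 alone, without the libraries that stood apart, the log2 fold changes were 16.62 for Chl1, 2.32 for L1cam, -4.30 for Ncam2, 0.89 for Alcam and -1.72 for Mcam, and Chl1 and Ncam2 passed. Nrcam then had 0.75 and Ncam1 -0.01, and Cadm1 was too low to test. The median log2 fold change of the 8 tested members was 0.11, against 0.01 over all tested genes.

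The make-up of the set per length of exon differed between the groups. Chl1 was 23.8%, 24.99% and 15.5% of the summed CPM per kb in fusion replicates 1, 2 and 3 and at most 0.0154% in the other libraries. Ncam1 made up 21.2 to 23.7% without the fusion and 8.28 to 12.0% with it, and Alcam 61.5 to 73.6% throughout. In the order of levels per kb with empty vector, Alcam (26.2 ± 1.71 CPM per kb), Ncam1 (8.38 ± 0.967), Mcam (2.27 ± 0.126), Ncam2 (0.888 ± 0.495) and Nrcam (0.157 ± 0.0872) did not overlap with their neighbours, and L1cam, Cadm1, Chl1, Nfasc and Cntn1 followed with overlapping or zero values. With the fusion Chl1 (15.1 ± 6.12 CPM per kb) stood after Alcam (45.2 ± 5.37) and overlapped Ncam1 (7.08 ± 2.70). Ncam2 (0.0658 ± 0.0192) then lay below Mcam, Nrcam and L1cam. The WT library had the order of the empty vector libraries down to L1cam.

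**Figure D3:**
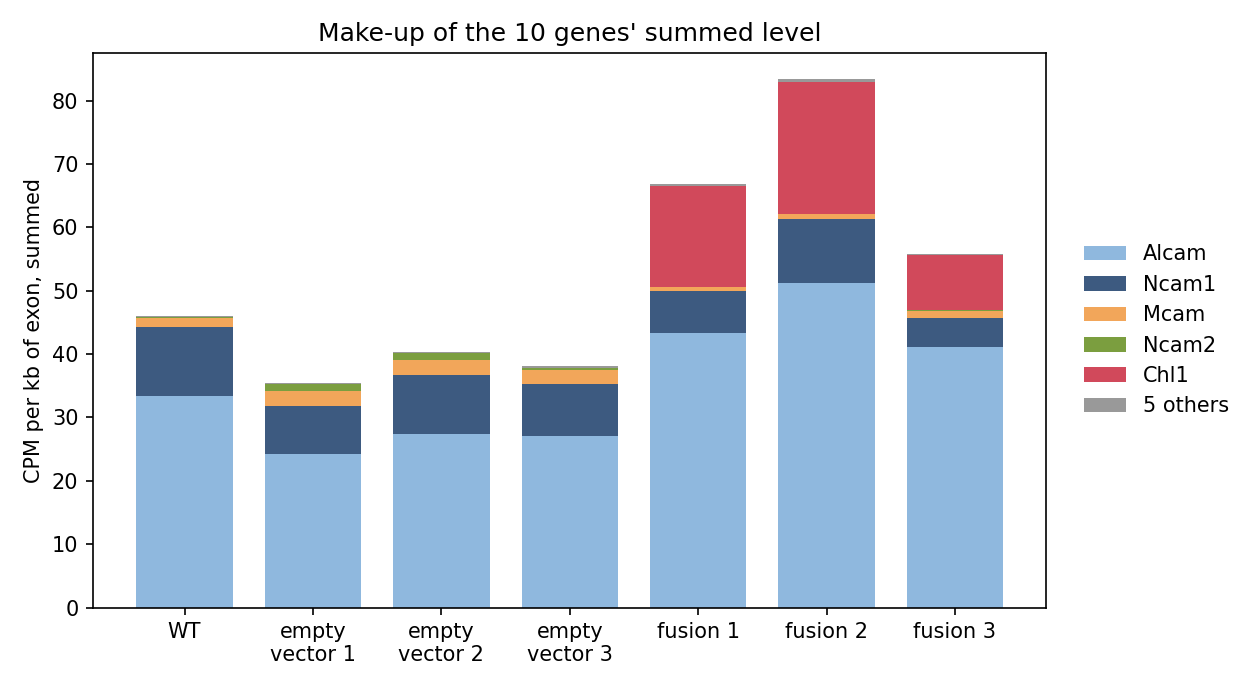
Summed CPM per kb of exon of the 10 genes in each library, stacked by gene; L1cam, Nrcam, Nfasc, Cadm1 and Cntn1 are drawn together. The sum is 35.4 to 46.0 CPM per kb without the fusion and 55.8 to 83.3 with it, and the Chl1 part is visible only in the fusion libraries.

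Empty vector was set against the WT library to see where the members lay without the fusion. No member passed the edgeR test among the 8 tested, and 0 of 18514 genes did, 0% of those tested; 814 genes (4.4%) and 2 members, Ncam2 and L1cam, had an unadjusted p under 0.05. DESeq2 called 71 genes, Ncam2 among them. This comparison uses the same empty vector libraries as the one that chose the genes, so its values are a description too. The fitted log2 fold change of empty vector over WT was 2.64 for Ncam2 (SE 0.82) and -1.35 for L1cam (SE 0.58), and it was 1.18 for Nrcam, 0.60 for Mcam, -0.37 for Ncam1 and -0.34 for Alcam. Among the tested members the WT library lay outside the range of the empty vector libraries in L1cam, Ncam1 and Alcam (above) and in Nrcam, Ncam2 and Mcam (below), where 44.3% of all tested genes lay outside. In Nfasc, too low to test, it also lay above, with 3 counts against at most 2 with empty vector. For Ncam2 the WT level of 1.62 CPM was nearer to the fusion mean of 0.745 than to the empty vector mean of 10.1, and for Chl1 the WT library, with 1 count, lay with the empty vector libraries. For the fit the lone WT library was taken to have the spread of the other groups.

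Among enzymes that cut or decorate these proteins, the polysialyltransferases St8sia2 and St8sia4 lay higher with the fusion. This list and those below were chosen with earlier results of these data known. Of 20 listed genes 17 were tested, 2 rose and 0 fell, with a list median of 0.07 on the log2 scale (4 and 1 with the replicate block), where 2.04% of all tested genes passed, and 13.1% with the block. St8sia2 and St8sia4 build the polysialic acid chains of NCAM. St8sia2 had 0 counts in the WT library and in empty vector replicates 1 and 2, 1 in empty vector replicate 3, and 54, 127 and 7 in fusion replicates 1, 2 and 3. Its pooled ratio was 221 (95% counting interval 39.2 to 8771), its log2 fold change 7.09 (SE 1.18, edgeR adjusted p = 0.0234). St8sia4 had 0 counts in the WT library, 2, 2 and 0 with empty vector and 146, 148 and 11 with the fusion, a pooled ratio of 89.6 (34.6 to 331) and a log2 fold change of 6.18 (SE 0.95, edgeR adjusted p = 0.0172). In both genes every fusion library lay above every other library, and fusion replicate 3 was the lowest of the 3. Both had enough reads to be tested only through the fusion libraries, so their calls and adjusted p-values are a description. Numbers 1 and 2 alone gave log2 fold changes of 9.55 for St8sia2 and 6.24 for St8sia4, both past the threshold. Leaving out 1 library ended the call of St8sia2 in 5 of 6 fits, all except that without fusion replicate 3, and of St8sia4 without empty vector replicate 2 or fusion replicate 2 (highest edgeR adjusted p 0.102 and 0.0756). The most abundant of this list were Adam10, the protease that sheds L1 and other adhesion proteins, at 194 ± 34.3 and 211 ± 28.9 CPM, and Plat, tissue plasminogen activator, at 178 ± 10.1 and 149 ± 33.0 CPM. Neither passed (edgeR adjusted p = 0.970 and 0.857).

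A broader list of Ig adhesion molecules gave few calls. Of 65 listed genes 39 were tested, 1 rose and 2 fell, the list's median log2 fold change being -0.02 (5 and 4 with the replicate block), beside 2.04% and 13.1% of all tested genes. Kirrel2, a nephrin-like protein of olfactory axon sorting, had 0 counts in the WT and empty vector libraries and 122, 167 and 73 with the fusion. It was at least 142-fold higher against 3 counts over the empty vector group (edgeR adjusted p = 0.0020) and kept its call in all 6 fits that left out a library. It had enough reads to be tested only through the fusion libraries, so its calls are a description. Its paralog Kirrel3 went from 7.97 ± 1.22 to 3.01 ± 0.601 CPM, with 4.03 CPM in the WT library (log2 fold change -1.40, edgeR adjusted p = 0.0429). Robo1, the receptor of the axon repellent Slit, showed 21.3, 19.0 and 6.95 CPM in replicates 1, 2 and 3 of empty vector and 2.71, 3.66 and 2.39 CPM in those of the fusion (log2 fold change -2.43, edgeR adjusted p = 0.0318). As in Ncam2, empty vector replicate 3 was the lowest of its group and the WT library, at 5.99 CPM, lay between the groups. The call of Kirrel3 ended in each of the 6 leave-one-out fits (highest edgeR adjusted p 0.171) and that of Robo1 in 5, all except that without empty vector replicate 3 (0.121). With numbers 1 and 2 alone Kirrel2 and Robo1 passed (edgeR adjusted p = 0.0156 for both) and Kirrel3 did not (0.139). Bsg, basigin, at 702 ± 224 and 580 ± 62.4 CPM, and Kirrel, at 250 ± 93.8 and 266 ± 90.1 CPM, were the most abundant and did not pass (edgeR adjusted p = 0.888 and 0.990).

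**Figure D4:**
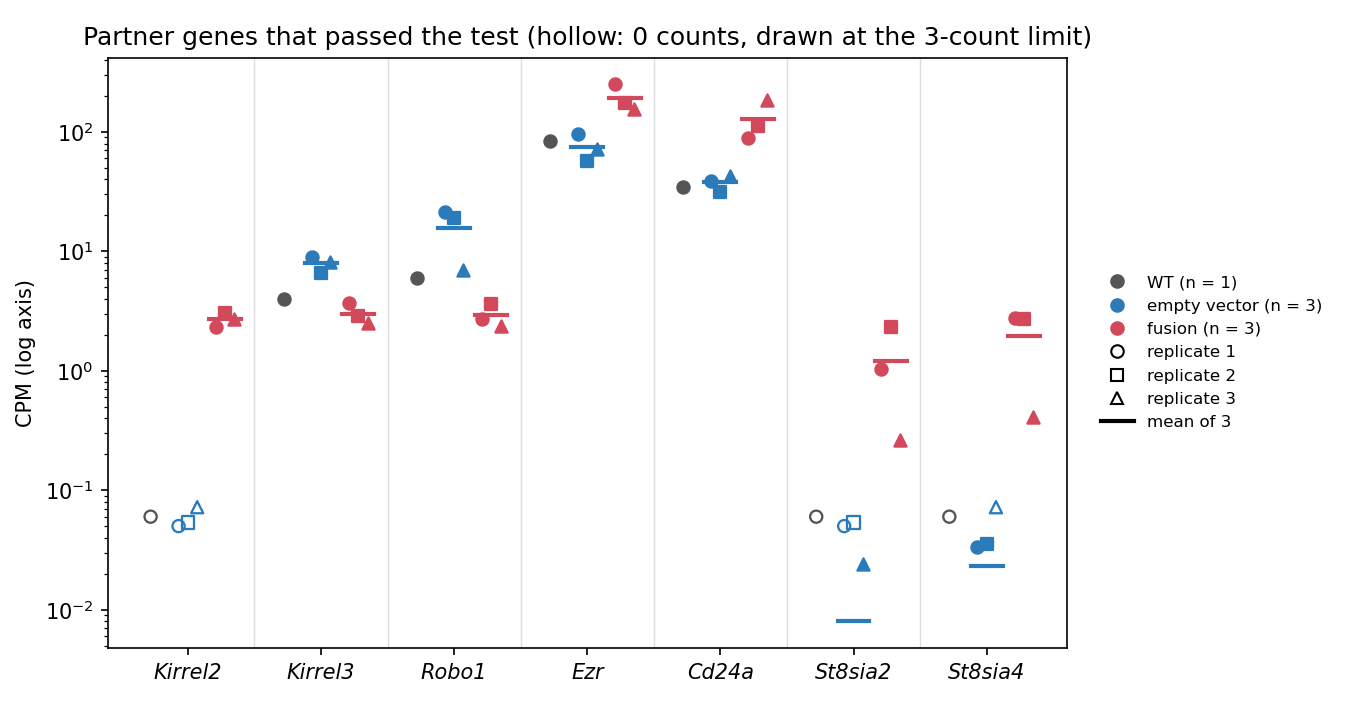
CPM (log axis) of the 7 genes from the partner lists that passed the edgeR test, in the WT library (grey), 3 empty vector libraries (blue) and 3 fusion libraries (red); lines are means of 3, and hollow symbols mark 0 counts at the 3-count limit of that library. St8sia2, St8sia4 and Kirrel2 have 0 to 2 counts in every library without the fusion, and Robo1 and Kirrel3 lie lower with the fusion.

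Inside the cell, 21 of 22 listed partners were tested and 1 rose and 0 fell, the list's median log2 fold change being 0.01 (4 and 2 with the replicate block), where the shares of all tested genes were 2.04% and 13.1%. Ezr, ezrin, an ERM protein that links L1 proteins to actin, lay at 84.6 CPM in the WT library, at 96.3, 57.2 and 71.9 CPM with empty vector and at 249.99, 174.6 and 157 CPM in fusion replicates 1, 2 and 3 (log2 fold change 1.37, edgeR adjusted p = 0.0474). All fusion libraries lay above the others, but the call ended in 4 of the 6 leave-one-out fits, those without empty vector replicate 2 or 3 or fusion replicate 1 or 2 (highest adjusted p 0.203, edgeR), and with numbers 1 and 2 alone (0.109). The most abundant were Sptbn1, beta spectrin, at 750 ± 243 and 754 ± 191 CPM, and the ERM protein moesin (Msn), at 535 ± 143 and 585 ± 220.4 CPM, and neither passed (edgeR adjusted p = 0.999 and 0.982).

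Outside the cell, 29 of 35 surface and matrix partners were tested and 1 rose and 0 fell, the list's median log2 fold change being 0.25 (6 and 2 with the replicate block), against 2.04% and 13.1% over all tested genes. Cd24a, a heavily glycosylated surface protein that binds L1, lay at 34.5 CPM in the WT library, at 39.1, 31.7 and 42.5 CPM with empty vector and at 89.6, 112 and 184 CPM in fusion replicates 1, 2 and 3 (log2 fold change 1.77, edgeR adjusted p = 0.0244). The fusion libraries lay above all others, and the call ended without empty vector replicate 1 or 2 or fusion replicate 2 (highest adjusted p 0.116, edgeR) but held with numbers 1 and 2 alone (0.0322). Itgb1, the integrin beta 1 chain, at 2146 ± 613 and 1826 ± 605 CPM, and Itgav, the integrin alpha V chain, at 419 ± 34.5 and 348 ± 67.6 CPM, had the highest means over the 7 libraries and did not pass (edgeR adjusted p = 0.951 and 0.841). Across all tested genes the median log2 fold change was 0.01.

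**Figure D5:**
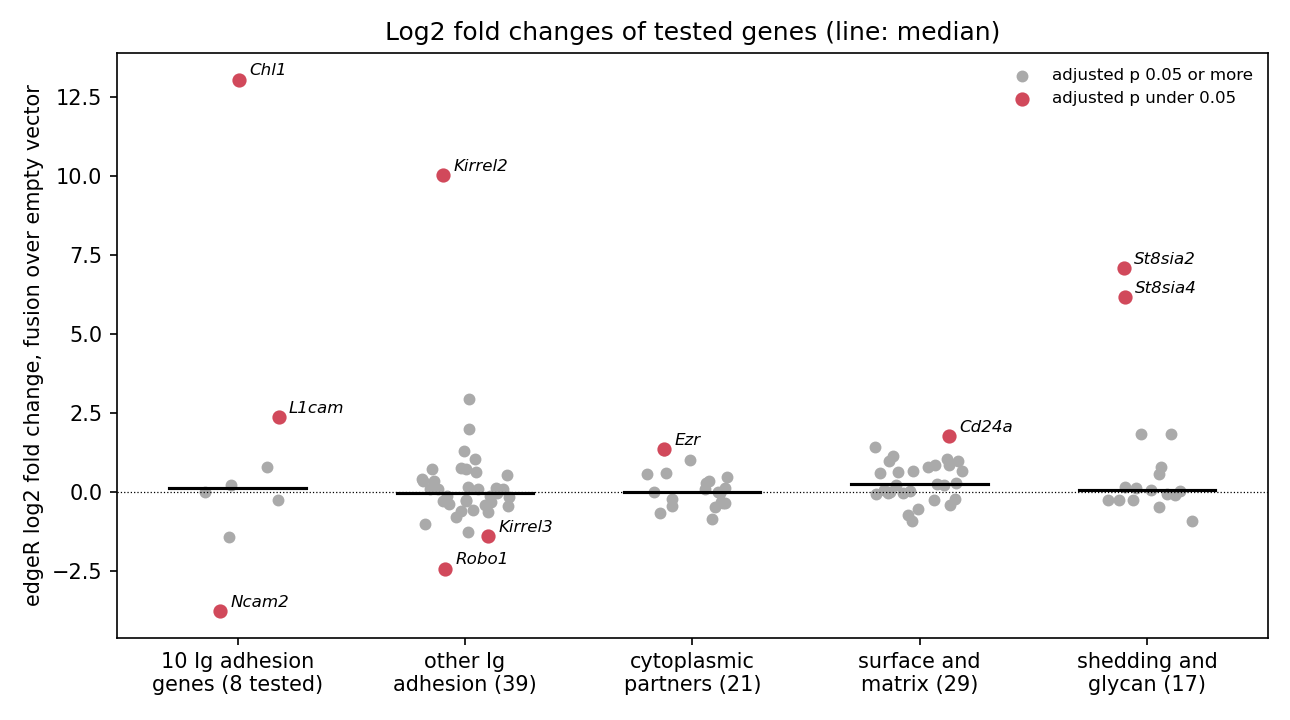
Fitted log2 fold changes, fusion over empty vector, of the tested members and of the tested genes in 4 partner lists, with each list's median as a line and genes at an edgeR adjusted p under 0.05 in red. The medians lie between -0.02 and 0.25, and the genes that passed lie on both sides of 0.

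Genes with the profile most like that of Chl1 and of Ncam2 were taken by the root mean square difference of log2(CPM + 0.5), centred over the 7 libraries. For Chl1 they were Sprr2g, a small proline-rich protein of epithelia (difference 0.81), Gsta2, a glutathione transferase (1.19), and Fam13a (1.23). Sprr2g lay at 48.0, 111 and 62.8 CPM and Gsta2 at 29.8, 34.9 and 56.9 CPM in fusion replicates 1, 2 and 3, and both lay under 0.25 CPM elsewhere. For Ncam2 they were Robo1 (0.46), Adcy8, an adenylyl cyclase (0.53), and Sema7a, a membrane-bound semaphorin (0.64). The WT library held 3.57 CPM of Adcy8 and 8.24 CPM of Sema7a, each below every empty vector library and above every fusion library, as Ncam2 did. These genes were picked for their likeness in these libraries, which is no evidence of anything they share.

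The next 3 protein-coding genes on each side of Chl1 and Ncam2 were read after the values of both were seen, and none of those tested passed. Next to Chl1 stand other Ig adhesion genes: Cntn3 had at most 1 count in a library, Cntn4 at most 3 and Cntn6 had 0 throughout. Il5ra had 0, 0 and 3 counts with empty vector, 17, 7 and 0 with the fusion and 0 in the WT library. Ppp4r2 lay at 78.96 CPM with empty vector and 74.3 CPM with the fusion. Pdzrn3 lay at 28.4 CPM with empty vector and 43.8 CPM with the fusion (log2 fold change 0.63, edgeR adjusted p = 0.316). Around Ncam2, Jam2, a junction adhesion molecule, lay at 54.9 and 58.9 CPM and D16Ertd472e at 16.75 and 16.95 CPM. Mrpl39, a mitochondrial ribosomal protein, lay at 65.7 and 87.7 CPM (log2 fold change 0.42, edgeR adjusted p = 0.537), while Tmprss15, Chodl and Gm21833 had at most 14 counts in a library.

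Markers of neural and other cells were summed beside these changes. Of 11 neuronal markers 5 were tested and 0 passed, with summed levels of 34.2 to 41.5 CPM with empty vector, 29.2 CPM in the WT library and 39.01 to 44.0 CPM with the fusion, mostly from Tubb3 and Map2. Rbfox3, the marker of mature neuron nuclei, had 0 counts in every library, and Stmn2, Elavl3, Elavl4, Nefl and Nefm stayed at or below 0.2004 CPM. Of 8 glial markers 2 were tested and 0 passed, and their sum was 8.25 to 10.8 CPM with empty vector and 12.7 to 31.6 CPM with the fusion, which came mostly from Mbp, at 6.79 to 9.60 and 11.3 to 30.7 CPM. Olig2 and Foxd3 had 0 counts throughout and Sox10 stayed at or below 0.187 CPM. Of 7 neuroendocrine markers 3 were tested and Insm1 and Scg2 rose in the same edgeR test. The list summed to 0.161 to 0.468 CPM with empty vector, 0.782 CPM in the WT library and 1.98 to 3.29 CPM with the fusion. Scg2 lay at 0.641 CPM in the WT library, against means of 0.146 CPM with empty vector and 1.23 CPM with the fusion. Chga and Neurod1 had 0 counts throughout. Of 12 prostate epithelial markers 8 were tested and Krt18 and Foxa1 rose. Over all tested genes 2.04% passed, 1.69% higher. Insm1 and Foxa1 had 0 counts with empty vector and means of 0.911 and 1.54 CPM with the fusion. Insm1, Foxa1 and Scg2 had enough reads to be tested only through the fusion libraries, so their calls are a description. The part of these cell type programmes in the changes of the adhesion genes was not tested. Endothelial markers, of which Mcam is often taken as one, summed to 0.483 to 0.818 CPM with empty vector and 0.781 to 0.934 CPM with the fusion, and immune markers to 1.60 to 2.69 and 2.17 to 3.46 CPM.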

How the data were processed

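Each deposited value is a whole-number count of reads per gene, in 1 table for each lane of a library, that the authors made with STAR, HTSeq and the build GRCm38, per the submitters' processing notes. The sources used here give no versions, annotation release or strand setting. Reads were 50 bp, single-end. The 12 lane tables were summed to 7 libraries: the lanes within a library agreed within sampling noise (chi-square over degrees of freedom 0.9785 to 1.010), while replicates differed far more (107.9 to 311.2). Rows without a gene were left out of library totals and fits: reads in no feature were 5.726 to 6.927% of each library's reads, ambiguous reads 1.222 to 1.479% and multiply aligned reads 36.1 to 45.32%. Spike-in controls (92 rows) reached no more than 2 counts per library. Positions and exon lengths come from GENCODE M21. Symbols come from a separate reference of gene names, or from GENCODE M21 where that gave none, and 46091 of 46603 genes had one.

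Fusion and empty vector (6 libraries) were compared with edgeR 4.0.16 (R 4.3.3; TMM; filterByExpr, minimum count 10; robust quasi-likelihood F test) and p-values were adjusted by Benjamini-Hochberg over 16731 genes, with a threshold of 0.05. Empty vector and WT were compared in a 3-group fit of 7 libraries over 18514 genes. CPM use TMM factors over 7 libraries (0.944 to 1.037). DESeq2 1.42.0, other normalization, no filter, subsets of libraries and a replicate block were alternatives. The pairing of replicate numbers comes from the data, as no label names a shared batch: deviations from group means correlated at r = 0.659, 0.630 and 0.610 across genes between libraries of the same number and at -0.0474 to -0.530 between different numbers. Deviations sum to 0 in each group, so positive values within numbers push those between numbers below 0. The negative values are therefore no separate evidence of pairing. As reads carry no molecular identifiers, counting intervals and limits for 0 counts cover only counting error. The test script was checked on simulated counts.

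Members and lists were chosen with earlier results of these data known. Named genes are the 10 members; in each partner list those that passed (the 6 smallest p if over 6) and the 2 of highest mean CPM; and the 3 tested genes nearest in profile to Chl1 and to Ncam2. The motifs were chosen after the sequences were seen. Some markers and the prostate epithelial sum are not reported here.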

Additional observations from a re-analysis of the deposited data

How the results depend on the processing

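With the replicate number as a block, which takes up the pairing, 2196 genes passed for fusion against empty vector in place of 341, with 5 members in place of 3, and 9, 6, 8 and 5 genes of the other Ig, cytoplasmic, surface and matrix, and shedding and glycan lists in place of 3, 1, 1 and 2. It ended no call among the 3 members and 7 partner genes that had passed. DESeq2 called 922 genes, 5 members and 7, 2, 3 and 4 genes of these lists, and for empty vector against WT 71 genes and 1 member. No filter on low counts gave 530 genes, and 15 for empty vector against WT. A fit of all 7 libraries called 0 cytoplasmic partners; numbers 1 and 2 alone called 0 of these and 4 shedding and glycan genes, and ended the calls of L1cam, Kirrel3 and Ezr. Leaving out 1 library gave 133 to 384 genes, fewest without empty vector replicate 2, 1 to 4 members, and 1 to 2, 0 to 1, 0 to 1 and 0 to 3 genes of the lists. Nrcam changed sign, at -0.018 with RLE normalization, -0.034 without a filter, -0.019 with DESeq2, -0.024 with all 7 libraries, and -0.33 to 0.52 with 1 library left out. Cadm1 ran from -0.38 to 2.26 with 1 library left out, and Chl1 in empty vector against WT ran from -3.17 to 0.61, positive without empty vector replicate 1 or 2 (0.61 and 0.56). With a pseudocount of 0.1, 2 of the 3 genes most like Chl1 and 1 of the 3 most like Ncam2 were the same. The cause of these shifts was not tested. Depth limits L1cam, Nfasc, Cadm1 and Cntn1, with at most 64 counts in a library.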
